A study of Mus musculus with 12 samples.

Results

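The enzymes that turn cholesterol into conjugated bile acids were described in 12 RNA-seq libraries of mouse liver cells, as 10 genes picked by symbol from the 53599 genes of the count table. The genes were Cyp7a1, Cyp8b1, Cyp27a1, Cyp7b1, Hsd3b7, Akr1d1, Amacr, Acox2, Slc27a5 and Baat. The cells are called CLiP, and the sample labels name bilCLiP cells as derived from biliary epithelial cells and hepCLiP cells as derived from hepatocytes. There were 4 groups of 3 libraries: bilCLiP 3D, bilCLiP 2D, hepCLiP 3D and hepCLiP 2D. All 2D cultures grew on collagen-coated plates in a medium for small hepatocytes that held 10% serum (FBS) and the kinase inhibitors Y-27632, A83-01, which acts on TGF-beta receptors, and CHIR99021, which acts on GSK3. For 3D, cells formed spheroids in microwells over 3 days with the same inhibitors and no serum, and were then moved to suspension plates, where 10 ng/ml of the cytokine oncostatin M was present for another 6 to 8 days. Serum, cell shape, time and oncostatin M therefore differ together between 3D and 2D and cannot be told apart. All bilCLiP libraries were RosaYFP by genotype, a yellow reporter at the Rosa26 locus. Each hepCLiP group held 1 RosaYFP library (replicate 2) and 2 RosaConfetti libraries, which carry a multicolour reporter. Groups follow the sample titles, because the treatment tags of the 3 bilCLiP 3D samples name 2D and that of hepCLiP 2D replicate 3 names 3D. The profile of this last library correlated at 0.960 to 0.968 with its titled group and at 0.836 to 0.867 with hepCLiP 3D (Pearson's r of log2(CPM + 1) across tested genes).

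Bile acids are made in hepatocytes. In the classic pathway Cyp7a1 hydroxylates the cholesterol ring in the first, rate-limiting step, whereas the alternative pathway starts on the side chain with mitochondrial Cyp27a1 and continues with Cyp7b1. The ring is then remodelled by Hsd3b7 and Akr1d1, Cyp8b1 adds the hydroxyl group that makes cholic acid, the side chain is shortened in peroxisomes with the help of Amacr and Acox2, and Slc27a5 and Baat join the acid to taurine or glycine.

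Total counts ran from 16142365 to 21253382 per library, and 12822 to 14067 genes had at least 10 counts. Levels are given as CPM, read counts scaled to the library size after TMM correction. The scaling factors were 0.764 to 0.941 in 3D and 1.16 to 1.26 in 2D libraries. Differences are log2 fold changes from edgeR's quasi-likelihood test over all groups. Their standard error (SE) was worked back from that test, as the absolute log2 fold change divided by the square root of F. SE and the intervals built on it are therefore approximate, above all where a group has few or no counts. The word "called" means an adjusted p under 0.05 (Benjamini-Hochberg, over the 14798 tested genes). The low-count filter left 9 of the 10 enzymes to test. Of these 9, only Cyp27a1, Acox2 and Amacr would have passed the filter through a 2D group. The other 6 would not have passed within a single 2D group, but the filter counts libraries across all groups. Baat reached the cutoff in 1 bilCLiP 2D and 2 hepCLiP 2D libraries, which was enough to pass. The rest of these 6 needed their 3D libraries, so a difference in favour of 3D is built into their selection. Counts over the enzymes are therefore given as a description.

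Promoter sequences are shown for the 3 enzymes whose start regions illustrate the range among those described here. They come from RefSeq tables of build GRCm38.p6, which is older than the GRCm39 build of the counts, and run from 250 bases before to 50 bases after the gene start. The tables had an entry for 5 of the 10 genes, namely Cyp8b1, Cyp27a1, Akr1d1, Hsd3b7 and Acox2. Capitals mark matches to the 5 motifs that were searched on both strands.
Cyp8b1, chr9:121916256-121916555, minus strand: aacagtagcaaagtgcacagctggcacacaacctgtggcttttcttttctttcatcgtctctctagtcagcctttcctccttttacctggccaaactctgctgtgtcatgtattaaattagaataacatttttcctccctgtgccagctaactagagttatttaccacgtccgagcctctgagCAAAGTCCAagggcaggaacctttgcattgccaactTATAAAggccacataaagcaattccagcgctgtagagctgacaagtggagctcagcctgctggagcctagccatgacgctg
Akr1d1, chr6:37529923-37530222, plus strand: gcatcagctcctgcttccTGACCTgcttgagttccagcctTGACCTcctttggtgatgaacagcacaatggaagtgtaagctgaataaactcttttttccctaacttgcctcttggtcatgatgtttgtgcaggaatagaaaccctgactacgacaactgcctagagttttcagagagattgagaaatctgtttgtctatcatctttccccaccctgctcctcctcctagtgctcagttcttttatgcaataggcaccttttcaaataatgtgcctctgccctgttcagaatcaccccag
Cyp27a1, chr1:74713285-74713584, plus strand: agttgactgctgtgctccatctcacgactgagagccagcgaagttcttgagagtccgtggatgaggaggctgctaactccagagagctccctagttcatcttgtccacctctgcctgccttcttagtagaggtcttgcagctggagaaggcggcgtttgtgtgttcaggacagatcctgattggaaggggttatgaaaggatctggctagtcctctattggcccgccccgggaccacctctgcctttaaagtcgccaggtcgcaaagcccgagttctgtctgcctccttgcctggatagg

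The Cyp8b1 sequence held CAAAGTCCA, a motif of the hepatocyte factor HNF4, 67 bases before the start, and a TATAAA box 31 bases before it. Of 32851 RefSeq promoters of this length, 0.475% held CAAAGTCCA and 13.6% held TATAAA. The Akr1d1 sequence held the nuclear receptor hexamer AGGTCA at 2 places on the opposite strand, so that it reads as TGACCT, 232 and 210 bases before the start. That hexamer was in 16.3% of promoters. The Cyp27a1 sequence held none of the 5 motifs, and neither did those of Hsd3b7 and Acox2. CAAGGTCA, the extended hexamer of NR5A2 that contains AGGTCA, was found in no enzyme sequence and in 1.56% of promoters. TTGCGCAA, a C/EBP palindrome, was likewise in none and in 0.183%. The motifs were chosen after the sequences had been seen, and a match is a description of letters only.

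The enzymes stood higher in 3D spheroids than in 2D culture in both cell origins, by 2.74-fold and 2.59-fold for Amacr and by 1114-fold and 2207-fold for Slc27a5 in bilCLiP and hepCLiP. In bilCLiP, 9 of the 9 tested enzymes were called higher in 3D, and 15.8% of all tested genes were called higher (30.3% in either direction). In hepCLiP, 9 of 9 were called higher, beside 16.9% of all genes (34.7% in either direction). The median log2 fold change of the 9 was 4.87 in bilCLiP, or 4.81 with Cyp7a1 held at its lower bound, and 5.62 in hepCLiP. Medians over all genes were -0.00 and -0.06. Of the 9, 6 did not pass the filter within a 2D group, and all of these except Baat needed 3D libraries. These counts and medians therefore favour 3D by selection and are a description only. The 3 that passed in a 2D group, Cyp27a1, Acox2 and Amacr, had 3.27, 2.20 and 1.45 in bilCLiP. In hepCLiP these 3 had 3.58, 2.81 and 1.37. With libraries scaled by their totals alone, the medians over all genes moved to -0.47 in bilCLiP and -0.63 in hepCLiP, and the share of calls that were higher in 3D was 19.9% and 16.3%, against 52.1% and 48.6% with TMM. Relative to those shifted medians the 9 enzymes still stood higher in 3D. The lowest 3D library lay above the highest 2D library for 8 enzymes in each origin, as it did for 24.6% of all genes in bilCLiP and 22.3% in hepCLiP. In bulk RNA, fewer cells that express a gene and less of its RNA per cell cannot be told apart.

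**Figure D1:**
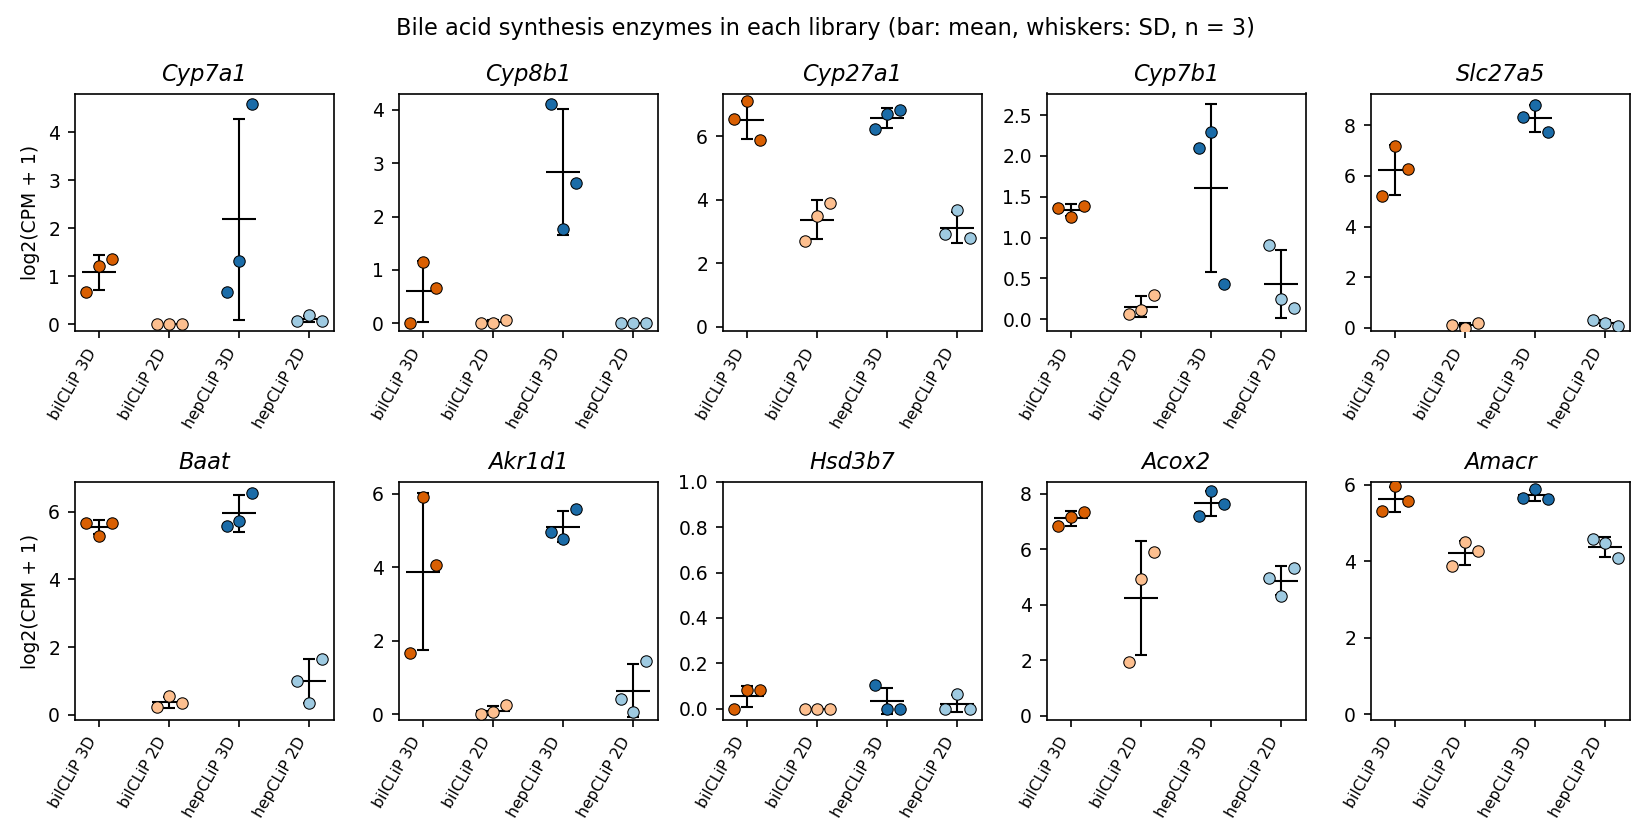
Level of each of the 10 enzymes in every library, as log2(CPM + 1) on the vertical axis, for bilCLiP 3D, bilCLiP 2D, hepCLiP 3D and hepCLiP 2D. Points are libraries, in replicate order from left to right, and bars and whiskers are the mean and SD of 3. The 3D libraries of Slc27a5 and Baat sit far above the 2D libraries in both origins, Cyp7a1 in hepCLiP 3D is spread from 0.586 to 22.9 CPM, and Hsd3b7 stays near 0.

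Cyp7a1, the rate-limiting enzyme of the classic pathway, was low even where it was detected. It had 0.593, 1.32 and 1.57 CPM in bilCLiP 3D, from 59 counts in all, against 0 counts in every bilCLiP 2D library. In hepCLiP 3D it had 0.586, 1.49 and 22.9 CPM, against 0.0463, 0.136 and 0.050 CPM in hepCLiP 2D. Libraries of 3D and 2D did not overlap in either origin, and the third hepCLiP 3D library stood apart, at 39.1 times the lowest one of its group. In bilCLiP, Cyp7a1 was at least 28.0-fold higher in 3D against a floor of 3 counts summed over the 2D group (adjusted p = 0.0244). This call was lost when any of 5 single libraries was left out, namely bilCLiP 3D replicate 2 or 3 or any bilCLiP 2D replicate, with adjusted p of 0.0541 to 0.0596. In hepCLiP the log2 fold change was 6.62 ± 1.52 (SE, adjusted p = 0.00992), and 3.63 (adjusted p = 0.0115) without hepCLiP 3D replicate 3.

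Cyp8b1, the enzyme that directs synthesis to cholic acid, was detected almost only in 3D. It had 0, 1.21 and 0.580 CPM in bilCLiP 3D, against 0, 0 and 0.0456 CPM in bilCLiP 2D. hepCLiP 3D cells had 16.1, 2.41 and 5.21 CPM, against 0 counts in every hepCLiP 2D library. The bilCLiP groups overlapped, since bilCLiP 3D replicate 1 held no count, and the hepCLiP groups did not. In hepCLiP it was at least 166-fold higher in 3D (adjusted p = 0.00314). In bilCLiP the ratio of the summed counts, 31 in 3D and 1 in 2D, was 44.1 after scaling, with an exact 95% interval of 7.35 to 1797 for counting error only. The edgeR log2 fold change there was 4.87 ± 1.61 (SE, adjusted p = 0.0495), and leaving out any of 8 single libraries ended the call: bilCLiP 3D replicate 2 or 3, any bilCLiP 2D replicate, hepCLiP 3D replicate 3, or hepCLiP 2D replicate 1 or 2 (adjusted p of 0.0506 to 0.161).

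Cyp27a1, the mitochondrial hydroxylase that opens the alternative pathway and also oxidises the side chain in the classic one, was well measured in all groups. It had 91.7, 137 and 58.2 CPM in bilCLiP 3D, against 5.47, 10.2 and 14.0 CPM in bilCLiP 2D. Levels in hepCLiP 3D were 73.8, 104 and 112 CPM, against 6.52, 11.7 and 5.89 CPM in hepCLiP 2D. Every 3D library was above every 2D library. The log2 fold change was 3.27 ± 0.43 in bilCLiP (SE, adjusted p = 0.000445) and 3.58 ± 0.44 in hepCLiP (adjusted p = 0.000263).

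Cyp7b1, the oxysterol hydroxylase that follows Cyp27a1, had much lower levels. It had 1.58, 1.38 and 1.62 CPM in bilCLiP 3D, against 0.0431, 0.0777 and 0.228 CPM in bilCLiP 2D. In hepCLiP 3D it had 3.30, 3.90 and 0.347 CPM, against 0.879, 0.182 and 0.0999 CPM in hepCLiP 2D. The bilCLiP groups were apart. The hepCLiP groups overlapped, since hepCLiP 3D replicate 3, the library highest in Cyp7a1, was below hepCLiP 2D replicate 1 in Cyp7b1. The log2 fold change in bilCLiP was 3.66 ± 1.02 (SE, adjusted p = 0.0202), and without bilCLiP 2D replicate 1 or 2 the adjusted p was 0.0685 or 0.0711. In hepCLiP it was 2.67 ± 0.92 (adjusted p = 0.0442) and 4.09 without hepCLiP 2D replicate 1. That call was lost without any of 8 other single libraries (any bilCLiP 3D replicate, bilCLiP 2D replicate 2, hepCLiP 3D replicate 1 or 2, hepCLiP 2D replicate 2 or 3; adjusted p of 0.0547 to 0.130).

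Hsd3b7, the dehydrogenase that acts on the ring after the first hydroxylation, had at most 1 count in any library and 4 counts in all, so its level could not be described. In GENCODE M21, an annotation of build GRCm38, 62.0% of its exon bases are also exon of Gm49388, a gene on the same strand, and 62.4% of 9430064I24Rik, on the other strand. Gm49388 had 0 counts in every library and 9430064I24Rik had 32 counts in all. The other 9 enzymes shared no exon base with another gene in that annotation. Whether the overlap set the low Hsd3b7 count was not tested, and the low count is not read as absence of the enzyme.

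Akr1d1, the reductase that gives the steroid nucleus of bile acids its bent shape, was variable in bilCLiP 3D. It had 2.17, 59.2 and 15.8 CPM there, against 0, 0.0389 and 0.182 CPM in bilCLiP 2D. The hepCLiP 3D values were 30.1, 26.3 and 46.8 CPM, against 0.324, 0.0455 and 1.75 CPM in hepCLiP 2D. Groups of 3D and 2D did not overlap, although bilCLiP 3D replicate 1 was 27.2 times below the highest library of its group. Its log2 fold change was 8.37 ± 1.55 in bilCLiP (SE, adjusted p = 0.00271) and 5.62 ± 1.25 in hepCLiP (adjusted p = 0.00600).

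Amacr, the racemase that sets the side chain for peroxisomal oxidation, showed the smallest difference between 3D and 2D of the 9 tested enzymes. It had 38.6, 61.3 and 46.5 CPM in bilCLiP 3D, against 13.5, 21.7 and 18.3 CPM in bilCLiP 2D. hepCLiP 3D cells had 49.2, 57.5 and 48.4 CPM, against 22.7, 21.4 and 15.9 CPM in hepCLiP 2D. No 3D library fell among the 2D libraries. The log2 fold change was 1.45 ± 0.22 in bilCLiP (SE, adjusted p = 0.000977) and 1.37 ± 0.22 in hepCLiP (adjusted p = 0.00110). In hepCLiP it was 0.79 with libraries scaled by their totals alone (adjusted p = 0.00686).

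Acox2, the peroxisomal oxidase of branched side chains, was the enzyme with the highest mean CPM in both 2D groups. It had 113, 143 and 160 CPM in bilCLiP 3D, against 2.84, 29.5 and 58.1 CPM in bilCLiP 2D. In hepCLiP 3D it had 147, 276 and 199 CPM, against 30.3, 18.9 and 39.4 CPM in hepCLiP 2D. Groups did not overlap, and bilCLiP 2D was spread 20.4-fold between its lowest and highest library. Its fitted log2 fold change was 2.20 ± 0.74 in bilCLiP (SE, adjusted p = 0.0449). That call was lost when any of 10 single libraries was left out, all except bilCLiP 2D replicates 1 and 3 (adjusted p of 0.0529 to 0.111). In hepCLiP it was 2.81 ± 0.76 (adjusted p = 0.0153), and 0.0562 was the adjusted p without hepCLiP 2D replicate 2.

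Slc27a5, the bile acyl-CoA synthetase that activates bile acids for conjugation, showed the largest differences among enzymes with counts in both cultures. It had 36.3, 145 and 77.3 CPM in bilCLiP 3D, against 0.0861, 0 and 0.137 CPM in bilCLiP 2D. hepCLiP 3D libraries held 320, 446 and 212 CPM, against 0.231, 0.136 and 0.050 CPM in hepCLiP 2D. The summed counts were 4415 against 5 in bilCLiP and 13704 against 9 in hepCLiP. The edgeR log2 fold change was 10.12 ± 0.80 in bilCLiP (SE, adjusted p = 2.87e-05) and 11.11 ± 0.78 in hepCLiP (adjusted p = 1.68e-05). Ordered from the most positive fold change of all tested genes, it stood at place 88 in bilCLiP and 7 in hepCLiP.

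Baat, the transferase that joins activated bile acids to taurine or glycine, was detected in all libraries. It had 49.9, 38.1 and 49.8 CPM in bilCLiP 3D, against 0.172, 0.466 and 0.273 CPM in bilCLiP 2D. The hepCLiP 3D values were 46.4, 51.3 and 93.1 CPM, against 1.02, 0.273 and 2.15 CPM in hepCLiP 2D. All 3D libraries stood far above all 2D libraries. Fitted log2 fold changes were 7.19 ± 0.66 in bilCLiP (SE, adjusted p = 7.22e-05) and 5.80 ± 0.60 in hepCLiP (adjusted p = 0.000126).

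**Figure D2:**
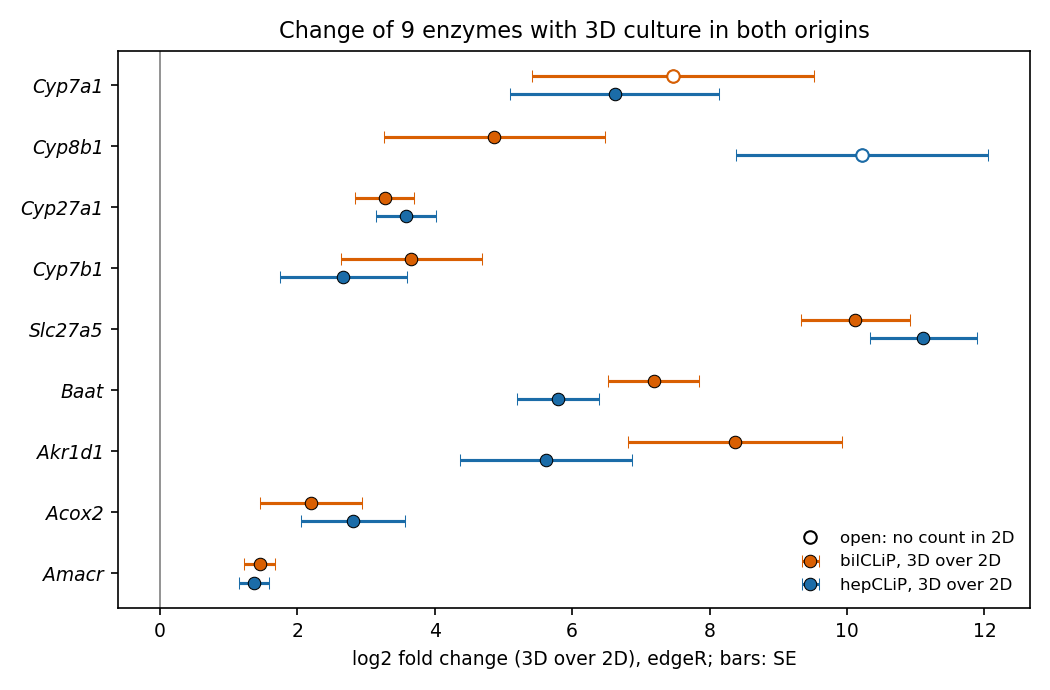
Log2 fold change of 3D over 2D on the horizontal axis for the 9 tested enzymes, in bilCLiP and in hepCLiP, with SE bars. Open points have no count in the 2D group, so their fitted position is not a bound. Slc27a5 lies at 10.12 in bilCLiP and 11.11 in hepCLiP, and Amacr at 1.45 and 1.37.

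The size of the 3D difference was not called different between the origins for any enzyme. In the test of the difference itself (bilCLiP effect minus hepCLiP effect), 0 of 9 enzymes had an adjusted p under 0.05 or an unadjusted p under 0.05, and DESeq2 called none. Over all genes the percentage called was 0, with 532 genes at an unadjusted p under 0.05 and 7 called by DESeq2. The intervals were narrow for Amacr, with a difference of 0.08 (95% interval -0.60 to 0.76 on the log2 scale), and wider for Cyp27a1, at -0.31 (-1.55 to 0.93). For Baat it was 1.39 (-0.38 to 3.17), for Akr1d1 2.76 (-1.55 to 7.07), for Cyp7b1 0.99 (-1.87 to 3.85), for Acox2 -0.61 (-2.83 to 1.61) and for Slc27a5 -0.99 (-4.46 to 2.49). Cyp8b1 had the largest fitted difference in size, -5.36 (-13.75 to 3.04), and Cyp7a1 had 0.84 (-2.001 to 3.69). Both include a 2D group with no count, so the fitted values are not bounds. Their intervals are also rough. The SE of the Cyp7a1 difference, 1.25, was below the SE of its bilCLiP effect alone, 2.05.

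Per length, the order of the enzymes differed between the cultures. CPM per kilobase of exon, with exon lengths from GENCODE M21, put Cyp27a1 (44.0 ± 18.3, SD, n = 3), Acox2 (37.4 ± 6.51) and Slc27a5 (35.4 ± 22.6) first in bilCLiP 3D. Their ranges overlapped. Acox2 (8.14 ± 7.46), Amacr (6.84 ± 1.57) and Cyp27a1 (4.56 ± 1.97) led in bilCLiP 2D, and again these neighbours did not differ beyond their spread. In hepCLiP 3D Slc27a5 came first (134 ± 48.0), with a lowest library of 87.0 above the highest library of any other enzyme, and Acox2 (56.0 ± 17.5) and Cyp27a1 (44.4 ± 9.25) followed with overlapping ranges. In hepCLiP 2D the order began with Acox2 (7.97 ± 2.77), Amacr (7.68 ± 1.38) and Cyp27a1 (3.70 ± 1.47).

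At the other end, the 3 hydroxylases Cyp7b1, Cyp8b1 and Cyp7a1 were the lowest tested enzymes in both 3D groups. In bilCLiP 3D they averaged 0.705, 0.305 and 0.278 CPM per kilobase, and in hepCLiP 3D 1.16, 4.06 and 2.00. The next enzyme above them, Akr1d1, averaged 8.89 in bilCLiP 3D and 11.9 in hepCLiP 3D. Slc27a5 and Akr1d1, in the upper 6 in 3D, averaged 0.0305 and 0.0255 in bilCLiP 2D and 0.0571 and 0.244 in hepCLiP 2D.

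**Figure D3:**
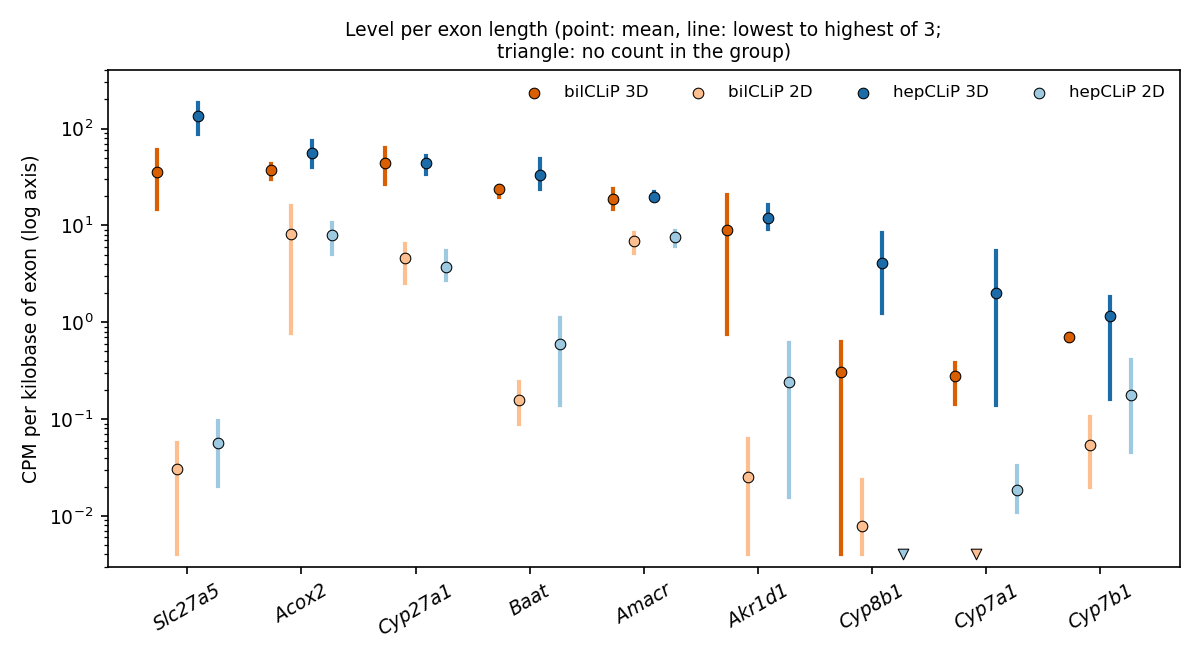
CPM per kilobase of exon on a log axis for the 9 tested enzymes in bilCLiP 3D, bilCLiP 2D, hepCLiP 3D and hepCLiP 2D. Points are means of 3 libraries and lines run from the lowest to the highest library. A line that reaches the lowest drawn level includes a library with no count, and triangles mark groups with no count at all. Slc27a5 is first in hepCLiP 3D at 134, while Acox2, Amacr and Cyp27a1 lead both 2D groups.

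Between origins within a culture, no enzyme passed the adjusted test. In 3D, 0 of 9 enzymes were called between bilCLiP and hepCLiP, beside 0.101% of all genes. Slc27a5 was lower in every bilCLiP 3D library (36.3 to 145 CPM) than in every hepCLiP 3D library (212 to 446 CPM). Its log2 fold change was -1.92 (95% interval -2.97 to -0.86, unadjusted p = 0.00214, adjusted p = 0.160), and DESeq2 called it with -1.95 (adjusted p = 0.0117). Cyp8b1 was also without overlap, at 0 to 1.21 CPM in bilCLiP 3D and 2.41 to 16.1 CPM in hepCLiP 3D, with a log2 fold change of -3.70 (-6.28 to -1.12, adjusted p = 0.199). Groups did not overlap, with bilCLiP lower, for 10.1% of all genes. Cyp7a1 had -2.83 (-5.56 to -0.11, adjusted p = 0.287) with overlapping groups, and 0.16 without hepCLiP 3D replicate 3.

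The remaining enzymes had intervals that included 0 in 3D. For Cyp27a1 the log2 fold change of bilCLiP over hepCLiP was -0.01 (-0.87 to 0.85), and for Amacr -0.08 (-0.57 to 0.40), so that differences past 2-fold lay outside both intervals. For Baat it was -0.47 (-1.51 to 0.57), for Acox2 -0.58 (-2.15 to 0.99), for Cyp7b1 -0.72 (-2.60 to 1.17) and for Akr1d1 -0.42 (-2.61 to 1.77), and these intervals did not exclude differences past 2-fold. Reporter genotype differs between the origins in 2 of 3 hepCLiP libraries per group. Among RosaYFP libraries alone, with 1 hepCLiP library per culture, none of the 9 was called between origins.

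**Figure D4:**
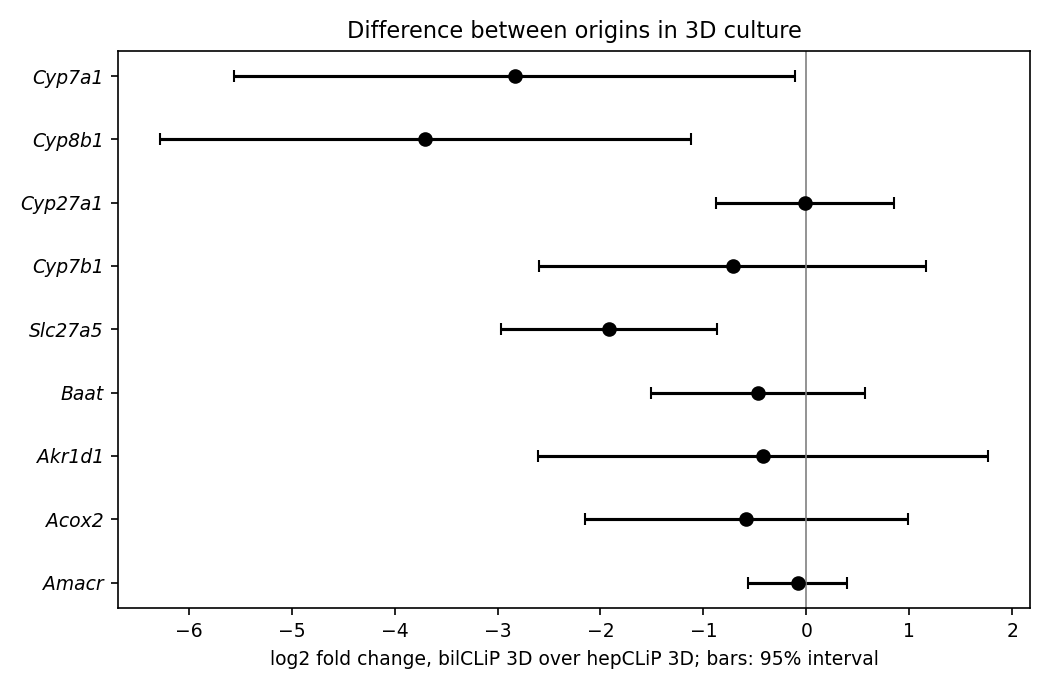
Log2 fold change of bilCLiP 3D over hepCLiP 3D on the horizontal axis for the 9 tested enzymes, with 95% intervals. The intervals of Cyp7a1, Cyp8b1 and Slc27a5 lie below 0 before adjustment, those of the other 6 include 0, and no adjusted p was under 0.05.

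In 2D, 0 of 9 enzymes were called between origins, beside 0.135% of all genes, and DESeq2 called 0. At an unadjusted p under 0.05 there was 1 of 9 enzymes, Baat, beside 2146 of the 14798 tested genes. Baat is therefore not read as a difference between origins. It had 0.172, 0.466 and 0.273 CPM in bilCLiP 2D and 1.02, 0.273 and 2.15 CPM in hepCLiP 2D, with overlapping groups. Its log2 fold change was -1.86 (95% interval -3.31 to -0.41, adjusted p = 0.252). Cyp27a1, Acox2 and Amacr, the enzymes with ample 2D counts, had differences of 0.30 (-0.60 to 1.19), 0.03 (-1.55 to 1.61) and -0.17 (-0.65 to 0.32).

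Within groups the enzymes did not move as one. After the group means were removed from log2(CPM + 1), Pearson's r over the 12 libraries was 0.70 between Slc27a5 and Akr1d1, 0.64 between Slc27a5 and Amacr and 0.59 between Cyp27a1 and Amacr. It was -0.88 between Cyp7a1 and Cyp7b1, and -0.55 between Cyp7b1 and Baat. Single libraries were also left out, a check chosen after seeing the data. Without hepCLiP 3D replicate 3 the 2 negative values were 0.065 and -0.022, so both rested on that library. The r of Slc27a5 and Akr1d1 was 0.16 without bilCLiP 3D replicate 1, and that of Slc27a5 and Amacr was 0.41 without bilCLiP 3D replicate 2. These values describe libraries that share group means, scaling and, for Cyp7a1 and Cyp7b1, few counts. The 2 lowest bilCLiP 3D values of Slc27a5 and Akr1d1 were in the same libraries, replicates 1 and 3. Summed over the 10 enzymes, bilCLiP 3D libraries held 333, 588 and 412 CPM and hepCLiP 3D libraries 687, 969 and 739 CPM.

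The genes most like each enzyme were taken by Pearson's r of log2(CPM + 1) across all 12 libraries. Such an r includes the difference between 3D and 2D that the genes share, so a high value need not hold within groups. Slc27a5 and Baat had 0.960 over the 12 libraries and -0.465 after group means were removed. The same 2 values for Slc27a5 and Akr1d1 were 0.940 and 0.704. For Slc27a5 the first was Slc27a2, an acyl-CoA synthetase (0.998), then Hrg, a plasma glycoprotein (0.997), and Gnat1 (0.996). Akr1d1 was most like Tat, tyrosine aminotransferase (0.993), Pemt (0.986) and Sec14l4 (0.986), and Baat like Cfhr4 (0.995), Dbi (0.994) and Serpina1d (0.994). Cyp27a1 was most like Ech1, an enzyme of fatty acid oxidation (0.993), Msrb1 (0.985) and Sar1b (0.980), Amacr like Herpud1 (0.989), Uqcrq (0.988) and Iyd (0.988), and Acox2 like Klc4 (0.969), Nedd4l (0.967) and Tm6sf2 (0.965). Cyp8b1 was most like the transporter Slc6a12 (0.992), Tmc5 (0.974) and Mup21 (0.954). Likeness was weaker for Cyp7b1, to Tacc1 (0.948), Albfm1 (0.943) and Slc38a10 (0.934), and for Cyp7a1, whose 3 most like genes included Bbs10 (0.899) and Ranbp3l (0.897).

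Other enzymes of the same pathways, a list of 10 genes that were all tested, were partly higher in 3D. In bilCLiP 7 were called higher and 0 lower (median log2 fold change 1.95), and in hepCLiP 6 were called higher and 1 lower (median 1.49). Of all tested genes, 15.8% were called higher and 14.5% lower in bilCLiP 3D, and 16.9% higher and 17.9% lower in hepCLiP 3D. Slc27a2, which activates side chain acids, had 85.8 CPM on average in bilCLiP 3D and no count in bilCLiP 2D, at least 2078-fold higher, and in hepCLiP its log2 fold change was 9.26 ± 0.69 (SE, adjusted p = 6.92e-05). Cyp2c70, the enzyme that makes muricholic acids in the mouse, rose by 9.20 ± 1.44 in bilCLiP (adjusted p = 0.00112) and 7.64 ± 1.30 in hepCLiP (adjusted p = 0.00145), within a gene family whose reads can be split between copies. Cyp39a1, an oxysterol hydroxylase, rose by 3.07 ± 0.36 and 2.53 ± 0.36 in bilCLiP and hepCLiP, and Scp2, the peroxisomal thiolase and sterol carrier, by 2.71 ± 0.20 and 2.90 ± 0.21.

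The peroxisomal genes Hsd17b4, the bifunctional enzyme that follows Acox2, and Abcd3, an importer of bile acid precursors, had smaller calls. Hsd17b4 rose by 0.95 ± 0.14 in bilCLiP and 1.36 ± 0.14 in hepCLiP, and by 0.47 and 0.79 with libraries scaled by their totals alone. Abcd3 rose by 0.57 ± 0.16 in bilCLiP (adjusted p = 0.0183) and 0.85 ± 0.16 in hepCLiP (adjusted p = 0.00212), and under library totals neither call held, with 0.09 (adjusted p = 0.595) and 0.28 (adjusted p = 0.0999). In bilCLiP the Abcd3 call was also lost without bilCLiP 3D replicate 2 or bilCLiP 2D replicate 1 or 3 (adjusted p of 0.0517 to 0.0787). Akr1c6, a hydroxysteroid dehydrogenase, had 4.61, 4.48 and 4.47 CPM in bilCLiP 3D against no count in bilCLiP 2D, at least 107-fold higher (adjusted p = 0.00211). In hepCLiP it had 0.440, 0.213 and 1.67 CPM in 3D against 0.324, 0.409 and 0 CPM in 2D, with overlapping groups and no call (adjusted p = 0.230).

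Ch25h, a cholesterol hydroxylase outside the P450 family, went the other way. It had no count in hepCLiP 3D and 1.48, 2.59 and 1.05 CPM in hepCLiP 2D, at least 24.3-fold lower in 3D (adjusted p = 0.00947). In bilCLiP 3D it had 0, 0.0574 and 0.174 CPM against 0.0431, 1.63 and 0.774 CPM in 2D, and its log2 fold change of -3.27 ± 1.23 was not called (adjusted p = 0.0756), but that of -3.23 was, with replicate number as a block (adjusted p = 0.0201). Cyp46a1, with about 1 to 2 CPM in all groups, and Acot8, a peroxisomal thioesterase, were not called in either origin.

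Among 15 regulators of bile acid synthesis, 14 were tested. In bilCLiP 8 were called higher and 0 lower (median log2 fold change 1.95), and in hepCLiP 7 were called higher and 0 lower (median 1.22). The shares over all tested genes were 15.8% higher and 14.5% lower in bilCLiP, and 16.9% and 17.9% in hepCLiP. Nr5a2, the nuclear receptor known as LRH-1 that acts on Cyp7a1 and Cyp8b1, averaged 26.03 CPM in bilCLiP 3D against 1.01 CPM in bilCLiP 2D, and 65.1 CPM in hepCLiP 3D against 4.12 CPM in hepCLiP 2D. Its log2 fold change was 4.68 ± 1.10 in bilCLiP (SE, adjusted p = 0.00912) and 3.99 ± 1.03 in hepCLiP (adjusted p = 0.0124), where the call was lost without the low-count filter (adjusted p = 0.0556). Hnf4a, a master factor of hepatocyte genes, rose by 1.47 ± 0.29 in bilCLiP and 1.63 ± 0.29 in hepCLiP, and by 1.05 in hepCLiP under library totals. The nuclear receptor Rxra rose by 3.05 ± 0.37 and 3.11 ± 0.37 in bilCLiP and hepCLiP, and Ppara by 3.41 ± 0.52 and 3.68 ± 0.52. In the same order, the oxysterol receptor Nr1h3 rose by 2.43 ± 0.42 and 2.10 ± 0.41 and Prox1 by 2.69 ± 0.37 and 2.60 ± 0.37. Klb, the co-receptor for the gut hormone that represses Cyp7a1, rose by 3.61 ± 0.68 and 3.41 ± 0.68.

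Nr1h4 and Fgfr4 were not called. Nr1h4, the bile acid receptor FXR, averaged 82.6 CPM in bilCLiP 3D against 80.8 CPM in bilCLiP 2D, and 63.6 CPM in hepCLiP 3D against 63.7 CPM in hepCLiP 2D. The 95% interval of its log2 fold change was -1.06 to 1.12 in bilCLiP and -1.09 to 1.09 in hepCLiP. Fgfr4, the receptor that works with Klb, averaged 74.2 against 63.6 CPM in bilCLiP and 82.1 against 84.0 CPM in hepCLiP (3D against 2D). Nr0b2, the repressor SHP that FXR induces, had at most 14 counts in any library and was not tested.

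Mafg, Nr1h2 and Ppargc1a were not called either. Nr1i2, the xenobiotic receptor PXR, had 14.2, 22.2 and 11.8 CPM in bilCLiP 3D against 0.0861, 0.117 and 1.55 CPM in bilCLiP 2D. Its log2 fold change was 4.79 ± 1.20 (SE, adjusted p = 0.0126), and 7.21 without bilCLiP 2D replicate 3. Nr1i2 lost this call without the low-count filter (adjusted p = 0.0542). In hepCLiP it had 15.1, 13.9 and 17.9 CPM in 3D against 11.6, 0.409 and 14.8 CPM in 2D, without a call (adjusted p = 0.566). The low 2D library, replicate 2, is the RosaYFP one.

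The P450 hydroxylases need electrons from partner proteins. Among 5 partners 1 was called higher in each origin (median log2 fold change 0.72 in bilCLiP and 0.12 in hepCLiP). Beside this, 15.8% of all tested genes were called higher in bilCLiP and 16.9% in hepCLiP. Cyb5r3, a reductase of cytochrome b5, rose by 0.82 ± 0.22 in bilCLiP (adjusted p = 0.0163) and 0.98 ± 0.22 in hepCLiP (adjusted p = 0.00593). Neither call held under library totals (0.34 and 0.39, adjusted p = 0.169 and 0.104), and the bilCLiP call was lost without bilCLiP 3D replicate 2 or 3 or bilCLiP 2D replicate 1 (adjusted p of 0.0564 to 0.0596). Por, the microsomal reductase, averaged 218 CPM in bilCLiP 3D against 149.8 CPM in bilCLiP 2D and 206 CPM in hepCLiP 3D against 237 CPM in hepCLiP 2D. Fdx1 and Fdxr, which serve mitochondrial Cyp27a1, were not called. Cyb5a, cytochrome b5, had a log2 fold change of 0.81 in bilCLiP (adjusted p = 0.127), and 0.90 (adjusted p = 0.00954) with the block.

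**Figure D5:**
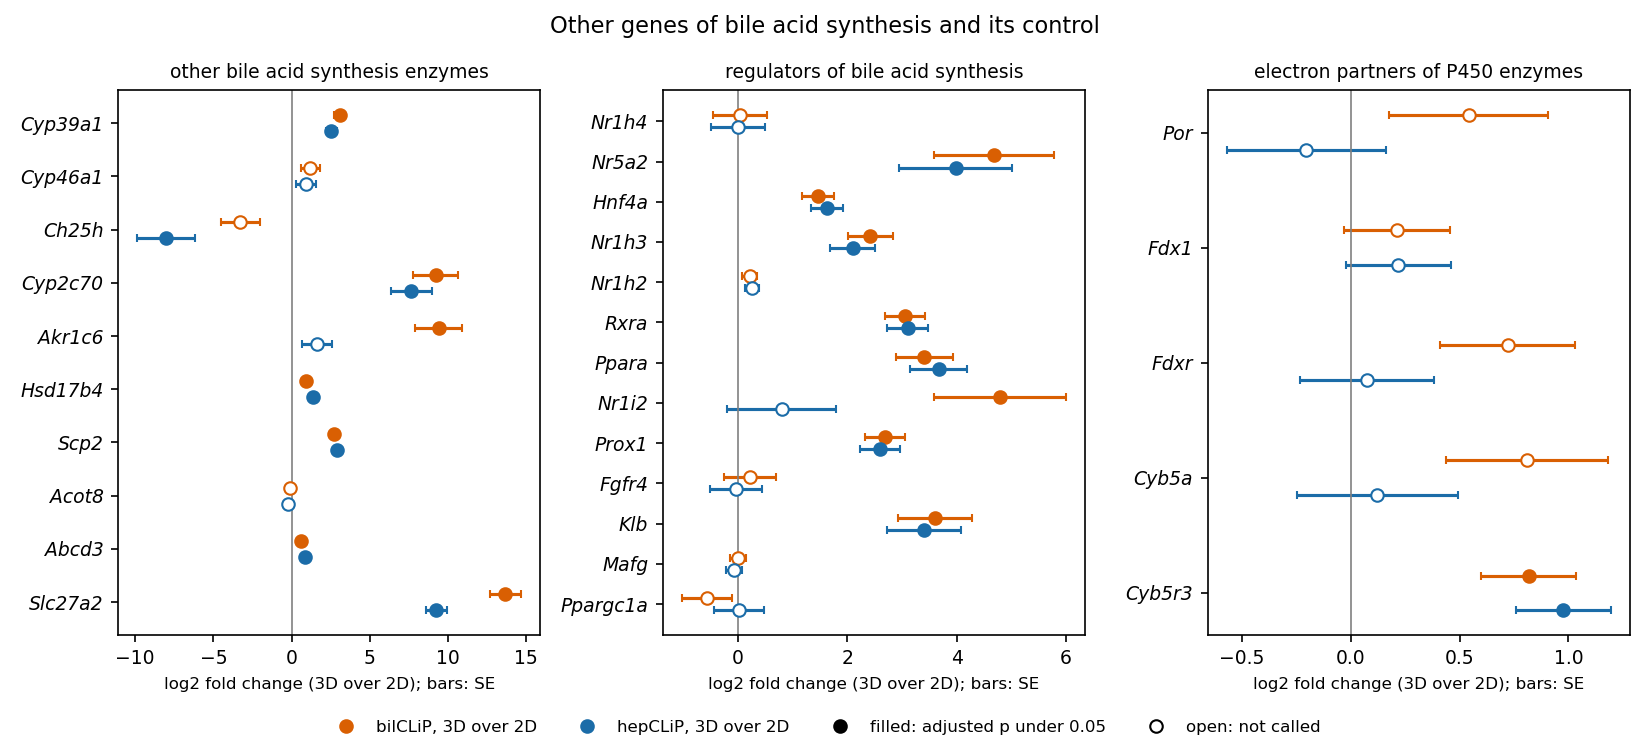
Log2 fold change of 3D over 2D with SE bars for the other pathway enzymes, the regulators named in the text and the electron partners, in bilCLiP and hepCLiP. Filled points have an adjusted p under 0.05. Slc27a2, Akr1c6 in bilCLiP and Ch25h in hepCLiP include groups with no count, so those fitted positions are not bounds, and Nr1h4, Fgfr4 and Mafg lie near 0.

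Of 12 bile acid transporters 10 were tested. In bilCLiP 7 were called higher and 1 lower (median log2 fold change 3.30), in hepCLiP 5 higher and 1 lower (median 2.36). Over all tested genes, 15.8% were called higher and 14.5% lower in bilCLiP, and 16.9% and 17.9% in hepCLiP. Abcb11, the canalicular export pump, rose by 8.70 ± 1.37 in bilCLiP and 7.23 ± 1.18 in hepCLiP, and Abcc4, a basolateral exporter, fell to 82.4 CPM in bilCLiP 3D, against 536 CPM in bilCLiP 2D, and to 106 CPM in hepCLiP 3D, against 729 CPM in hepCLiP 2D.

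Markers of hepatocytes and other cells moved with culture beside these genes. All 6 hepatocyte markers were called higher in 3D in both origins, with summed levels of 17393 to 43229 CPM in bilCLiP 3D against 180 to 1043 CPM in bilCLiP 2D, and 40755 to 51470 CPM in hepCLiP 3D against 341 to 1607 CPM in hepCLiP 2D. Bile acid enzymes were thus described in cultures whose general hepatocyte markers differed as well. The 6 biliary markers summed to 13732 to 33341 CPM in bilCLiP 3D, 6060 to 10913 in bilCLiP 2D, 11345 to 15683 in hepCLiP 3D and 3617 to 6564 in hepCLiP 2D, mostly from Spp1. Among these 6, 1 was called higher in each origin, with 2 lower in bilCLiP and 3 lower in hepCLiP. For either marker list, the shares over all tested genes were 15.8% higher and 14.5% lower in bilCLiP, and 16.9% and 17.9% in hepCLiP. The 4 mesothelial markers summed to 7.97 to 27.9 CPM in bilCLiP 3D against 546 to 867 CPM in bilCLiP 2D, and 5.57 to 26.1 CPM in hepCLiP 3D against 334 to 989 CPM in hepCLiP 2D. Fibroblast or stellate markers (8 genes) summed to 6.89 to 19.5 CPM in bilCLiP 3D, 0.155 to 1.73 in bilCLiP 2D, 4.59 to 284 in hepCLiP 3D and 0.818 to 4.72 in hepCLiP 2D. The hepCLiP 3D median was 5.39, so the highest sum came from 1 library. Only 2 of the 8 were tested. Dcn was called higher in hepCLiP 3D (log2 fold change 6.12, edgeR adjusted p = 0.0276) and not in bilCLiP 3D (4.81, adjusted p = 0.0849). Col1a1 was called in neither origin. The 5 macrophage or leukocyte markers summed to 5.01 to 19.2 CPM in bilCLiP 3D, 4.13 to 10.1 in bilCLiP 2D, 6.24 to 19.5 in hepCLiP 3D and 5.69 to 10.9 in hepCLiP 2D. Of these, Csf1r averaged 11.5 CPM in bilCLiP 3D against 3.72 CPM in bilCLiP 2D (adjusted p = 0.109) and 9.06 CPM in hepCLiP 3D against 3.22 CPM in hepCLiP 2D (adjusted p = 0.130), and Adgre1 and Clec4f had no count in either 3D group. The 5 endothelial markers summed to at most 3.70 CPM in any library. The part of these cells or markers in the enzyme differences was not tested.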

How the data were processed

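RNA-seq of 12 libraries gave a table of raw gene counts, which the authors deposited, and their table of normalized values (unit signal), which in every sample equals the raw counts divided by a constant and was not used further. Per the submitters' processing notes, tools were STAR 2.7.10b and featureCounts 2.0.1, with DESeq2 (no version) and build GRCm39. Which annotation, strand setting or counting options were used is not given in the sources used here. Reads of genes that overlap, on 1 strand or both, can therefore not be told apart.

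Tests used edgeR 4.0.16 under R 4.3.3 (filterByExpr, TMM, robust glmQLFit, glmQLFTest) with 4 group means over all 12 libraries, and 14798 of 53599 genes were tested in 5 comparisons. DESeq2 1.42.0 was an alternative. CPM values are counts scaled by TMM library sizes, and log2(CPM + 1) was used for correlations and plots. Intervals are 95%. A group with 0 counts was given a floor of 3 counts summed over its libraries, and a ratio with 1 to 3 counts an exact interval. Both cover counting error only, since PCR copies are not independent molecules. The fit was checked on simulated counts with known changes, placed only in genes above a minimum mean count. That check did not cover groups with no count or fold changes as large as the largest given here.

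The enzymes, the other gene lists, the markers and the tests were chosen with earlier results of these data known. Named were the 10 enzymes, all tested genes of 3 pathway lists, and the 3 tested genes most like each enzyme, leaving out unnamed gene models. A few genes under this rule are not reported here. Groups followed sample titles. Within an origin, same-numbered 3D and 2D libraries deviated together from their group means (correlations of 0.432 to 0.506 in bilCLiP and 0.474 to 0.513 in hepCLiP), so the block on replicate number is given where it changes a call. The labels name no animal or separate isolation for a replicate. P-values therefore measure only the spread between these samples. That spread may be technical among libraries of the same genotype, while each hepCLiP group held both RosaYFP and RosaConfetti libraries.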

Additional observations from a re-analysis of the deposited data

How the results depend on the processing

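The 9 tested enzymes kept a higher level in 3D in both origins under every other setting that gave a value. These were other scaling (RLE, or library totals alone), no low-count filter, DESeq2, a non-robust fit, only the 2 groups compared (where 8 of the 9 could be tested), replicate number as a block, RosaYFP libraries only, and each library left out in turn. Calls were less stable than directions. In hepCLiP, 2 of 9 enzymes (Slc27a5 and Baat) were called among RosaYFP libraries alone, where the lone hepCLiP library of each culture is assumed to vary like the others, and 7 to 9 were called with single libraries left out. In bilCLiP, 5 to 8 were called with single libraries left out, 5 of them without bilCLiP 2D replicate 2. DESeq2 called 1 enzyme, Slc27a5, between the origins in 3D. Cyp7b1 in hepCLiP lost its call under library totals (adjusted p = 0.0744) and with only 2 groups (0.101), Acox2 in hepCLiP without the filter (0.0651), and in bilCLiP Cyp7a1 (0.0697) and Cyp8b1 (0.0966) without the filter. Acox2 in bilCLiP lost it under library totals (0.0673), with only 2 groups (0.112) and without the filter (0.156). Among RosaYFP libraries, bilCLiP calls were lost for Acox2 (0.117), Cyp8b1 (0.0676) and Abcd3 (0.0555). Of the other genes given in the text, hepCLiP calls lost among RosaYFP libraries were those of Ch25h (0.183), Abcd3 (0.0909), Nr5a2 (0.153), Hnf4a (0.0646), Nr1h3 (0.142), Ppara (0.078), Klb (0.186), Cyb5r3 (0.0855) and Abcb11 (0.145). Among RosaYFP libraries, hepCLiP values were 3.39 for Cyp7a1, 4.38 for Cyp7b1 and 8.99 for Akr1d1. The cause of these changes was not tested.

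The replicate block changed no call of an enzyme (9 called in bilCLiP, 9 in hepCLiP, 0 in the other 3 comparisons) and few among the other genes, with those reported given in the text. Between origins, same-numbered libraries correlated at only 0.0218 to 0.150. The numbers were therefore taken to pair the cultures of an origin and not the origins, which the labels do not state. For culture, and for the difference of its effects, the block was set within each origin. Comparisons between origins used a block shared by same-numbered libraries of both. These correlations do not bear out that pairing, so no conclusion is drawn from the shared block. Library totals gave 7915 calls over all genes in hepCLiP and 6763 in bilCLiP, against 5139 and 4485. Over all genes RosaYFP libraries alone gave 769 calls with culture in hepCLiP, against 5139, and DESeq2 gave 546 calls between origins in 2D and 622 in 3D, against 20 and 15. Leaving out single libraries gave 6 to 31 calls between origins in 2D and 3 to 251 in 3D, where 251 was without hepCLiP 3D replicate 3. The shared block gave 62 calls between origins in 2D and 44 in 3D, and the 2 groups alone gave 5 and 3.

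Among the enzymes, directions reversed only in comparisons without a call. For bilCLiP 2D over hepCLiP 2D, the log2 fold change of Cyp27a1 was -0.25, that of Baat 0.16 and that of Akr1d1 0.57 among RosaYFP libraries. That of Acox2 was -0.31 with the block shared between origins. With single libraries left out, Cyp27a1 ran from -0.0372 to 0.67 and Acox2 from -0.87 to 0.57. For bilCLiP 3D over hepCLiP 3D, library totals gave 0.12 for Cyp27a1 and 0.0593 for Amacr. Leaving out single libraries gave -3.40 to 0.16 for Cyp7a1, -0.37 to 0.25 for Cyp27a1, -1.93 to 0.11 for Akr1d1 and -0.28 to 0.0479 for Amacr. For the difference of the culture effects, RosaYFP libraries gave 0.13 for Cyp27a1, -0.71 for Cyp7b1, -0.33 for Baat and -0.61 for Akr1d1, and the block gave 0.0041 for Acox2. Single libraries left out gave -0.69 to 0.0246 for Cyp27a1, -0.42 to 1.83 for Cyp7b1, -1.15 to 0.28 for Acox2 and -0.12 to 0.25 for Amacr.

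Depth limits Cyp7a1, Cyp8b1 and Cyp7b1, which rest on at most 359 counts in any group.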

Other observations

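Between the origins, genes near the bile acid enzymes that were not called showed differences on both sides. Cyb5r3, the reductase of cytochrome b5, averaged 320 CPM in bilCLiP 3D and 705 CPM in hepCLiP 3D (log2 fold change -1.14 ± 0.22, SE, edgeR unadjusted p = 0.000309, adjusted p = 0.111), and 182 CPM in bilCLiP 2D and 358 CPM in hepCLiP 2D (-0.98 ± 0.22, adjusted p = 0.132). Akr1c6, a hydroxysteroid dehydrogenase, averaged 4.52 CPM in bilCLiP 3D and 0.773 CPM in hepCLiP 3D (2.53 ± 0.92, adjusted p = 0.239). The uptake carrier Slco1b2 averaged 93.5 CPM in bilCLiP 3D and 24.6 CPM in hepCLiP 3D (1.92 ± 0.73, adjusted p = 0.239), with overlapping groups. None of the 3 passed the adjusted test, and they were chosen after their values were seen.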
